A study of Mus musculus with 2 samples.

Results

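The splicing factors and hnRNPs were examined as a group of 95 genes among the 18877 gene symbols of an RNA-seq expression table of E9.5 mouse PGCs (primordial germ cells, which later give rise to eggs and sperm). Members were chosen by symbol alone: the Srsf, Hnrnp, Sf3a, Sf3b, U2af, Prpf, Lsm, Snrp and Snrnp families, Sf1, and the regulators Esrp, Rbfox and Ptbp, without the imprinted gene Snrpn and without symbols marked as pseudogenes. Of the 95 members, 94 were annotated as protein-coding genes, and 1, Snrpert, as a processed pseudogene, an intronless copy of Snrpe whose symbol fell under the name pattern.

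The cells formed 1 group, PGCs of untreated C57BL6 embryos at embryonic day 9.5, with 2 biological replicates and no contrast between conditions, so each comparison below is between genes, between gene sets or between both libraries. Cells were isolated with an antibody against SSEA1, a carbohydrate antigen on the PGC surface; the methods describe gonads of female embryos and sorting by flow cytometry for CD61 and SSEA1 or by magnetic beads for SSEA1. The methods describe full-length cDNA amplification from few cells by Smart-seq2, whereas the labels name another library kit, so the chemistry of these libraries cannot be settled here. Values are TPM, transcript abundance relative to all others in a library, the authors' unit in which reads are divided by gene length and scaled to the same total. TPM puts genes on 1 scale, but comparisons between genes depend on the gene length used. Another choice of length, described below, brought members to between 0.711-fold and 4.72-fold of their deposited values. A high or a short gene also lowers the value of all others.

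Before an mRNA can be translated, introns are removed by the spliceosome. Its U1, U2, U4 and U5 small nuclear RNAs each carry a ring of Sm proteins and the U6 RNA carries a related ring of LSm proteins; with further proteins these form the snRNPs. U1 first pairs with the 5′ splice site and U2 with the branch site, then the U4/U6-U5 tri-snRNP joins and the complex is rearranged for catalysis. SR proteins bind exons and help to recruit the spliceosome, hnRNPs coat nascent transcripts and often oppose splice site use, and regulators such as Esrp, Ptbp and Rbfox proteins set cell type-specific exon choice.

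Splicing genes were far more abundant than most genes. The median member stood at 53.0 TPM in replicate 1 and 44.1 TPM in replicate 2. On the log2(TPM + 1) scale the members' median was 5.75 and 5.50, or 5.62 ± 0.18 on average (SD, n = 2), compared with 1.89 and 1.85 over all genes and 2.29 and 2.21 over protein-coding genes. A level of at least 1 TPM in both replicates was reached by 92 of 95 members, whereas 60% of all genes reached it. Among protein-coding genes the counts were 91 of 94 members and 69.5% of all 12679. On average 31 members were at 100 TPM or more, 42 were from 10 to under 100 TPM and 22 were under 10 TPM. The highest 10% of all genes held 46 members, and 88 members were above the median gene. No test was run on this difference in level, since 1 group of 2 libraries holds no contrast and genes are not replicates.

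**Figure D1:**
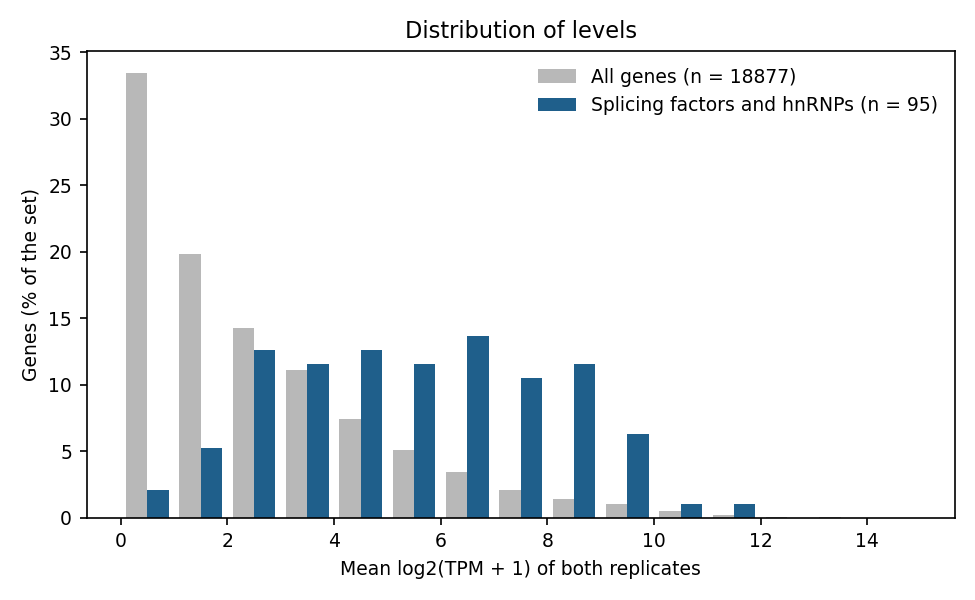
Distribution of levels, with the mean log2(TPM + 1) of both replicates on the x axis in steps of 1 and the percent of genes in each step on the y axis, for all 18877 genes (grey) and the 95 splicing genes (blue). The lowest step holds 33.4% of all genes and 2.11% of the splicing genes, most of which spread over the range from 2 to 10.

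Members together held 1.67% of all TPM in replicate 1 and 1.65% in the other (1.66% ± 0.0206 on average, SD, n = 2). They held 2.99% and 2.98% of the reads, which were recovered from the TPM steps and the exon length of each gene. The share was 0.710% without the members that share sequence with other loci and 2.62% with the length of the principal transcript (the main annotated transcript of each gene) in place of all exons. A single gene, Lsm7, held 15.4% and 17.6% of the members' TPM, and the 5 highest, Lsm7, Snrpe, Snrpd2, Snrpd1 and Snrpg, held 36.9% and 39.9%. Recovered depth came to 15912470 reads for replicate 1 against 5458687 for replicate 2, or 2.92 times as many. The median member rested on 1439 reads in replicate 1 and 464 in replicate 2, and 16 members had fewer than 100 reads in replicate 2.

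The identity of the cells was checked with marker genes. Of 13 early PGC markers, 12 reached 1 TPM in both replicates, led by Dppa3 at 5013 and 5075 TPM and Nanos3 at 473 and 453 TPM. Pou5f1, which encodes the germ cell and pluripotency factor Oct4, was low at 1.54 and 1.46 TPM. Fut4, which encodes a fucosyltransferase that can make the SSEA1 epitope, was listed at 0 and 0.147 TPM. Markers of red blood cells were also present: of 9 listed, 7 had a value and 6 were detected. Their summed level was 4002 and 3780 TPM. The embryonic globin gene Hba-x alone was at 2331 and 2065 TPM, while the defining factor Klf1 was at 0.275 and 1.56 TPM. Of 8 epithelial markers listed, 7 had a value and 6 were detected. Their summed level was 201 and 174 TPM, with Epcam alone at 160 and 138 TPM. For macrophages 5 were listed, 4 had a value and 3 were detected (19.4 and 9.53 TPM). For neural cells 8 were listed, 4 had a value and 3 were detected (6.75 and 7.41 TPM). For endothelium 6 were listed, 5 had a value and 1 was detected (Pecam1, at 8.23 and 9.99 TPM). Of 5 mesenchymal markers 1 was detected (2.37 and 3.95 TPM), and Lum was at 0 in both. Beside these counts, 69.5% of all protein-coding genes were detected. Whether these transcripts came from the PGCs or from other cells was not tested. The part of other cells in the levels of splicing genes was not tested either. In bulk RNA fewer cells of a type and less RNA per cell cannot be told apart.

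The Sm ring is built from 7 proteins, and the genes for 6 of them were among the highest members. Snrpe (SmE) was at 1438 and 1375 TPM. Snrpd2 (SmD2) followed at 818 and 880 TPM and Snrpd1 (SmD1) at 729 and 724 TPM. The next genes stood close together: Snrpg (SmG) was at 619 and 680 TPM and Snrpf (SmF) at 645 and 603 TPM, and these neighbours changed places between the replicates. Snrpd3 (SmD3) was at 365 and 367 TPM. Snrpb, which encodes SmB, was the lowest by far at 74.2 and 63.4 TPM, so Snrpe exceeded it 19.4-fold and 21.7-fold although the ring holds 1 copy of each protein. The SDs of Snrpe (44.5 TPM) and Snrpb (7.59 TPM) are small beside this gap. The gap was 31.1-fold and 34.8-fold with the length of the principal transcript. Snrpn, which encodes the related SmN protein, lies outside the group.

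**Figure D2:**
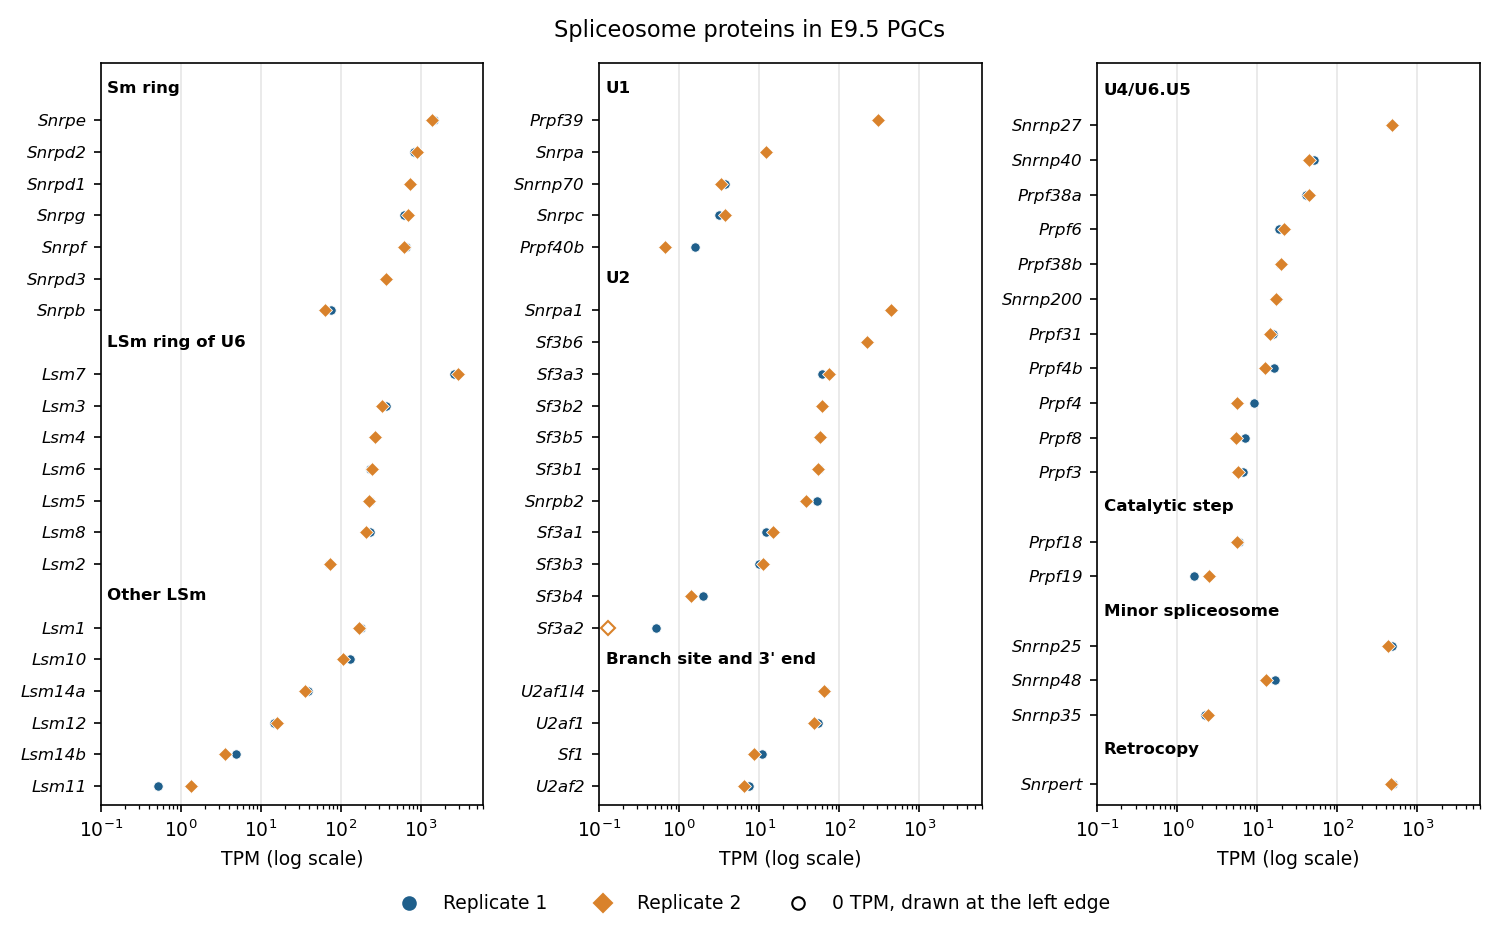
Spliceosome genes by role, with TPM on a logarithmic x axis and 1 row per gene, ordered by mean level within each role. Circles are replicate 1 and diamonds replicate 2; an open diamond marks the 0 of Sf3a2. The Sm and LSm rings lie mostly above 100 TPM, whereas U1 and tri-snRNP genes mostly lie below 50 TPM with 1 gene far above the rest in each; 1 U1 gene is not drawn.

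The LSm ring binds the 3′ end of U6 RNA and is built from LSm2 to LSm8. Lsm7 was the highest of all members, at 2572 TPM in replicate 1 and 2891 TPM in replicate 2. Between Lsm7 and the next gene the gap was 7.16-fold and 8.94-fold. That next gene, Lsm3, was at 359 and 323 TPM. A narrow group followed, with Lsm4 at 266 and 269 TPM, Lsm6 at 232 and 246 TPM, Lsm5 at 231 and 221 TPM and Lsm8 at 231 and 207 TPM. Lsm5 and Lsm8 changed places between the replicates. Lsm2 was lowest at 71.0 and 71.7 TPM. This last position rests on the gene length used. TPM was based on all annotated exons, and with the length of the principal transcript instead Lsm2 was at 190 ± 1.01 TPM, above Lsm6 at 183 ± 7.33 TPM and near Lsm4 at 213 ± 1.35 TPM, while Lsm7 was at 6647 ± 532 TPM and Lsm8 at 812 ± 64.8 TPM (SD, n = 2).

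The other LSm genes covered a wide range. Lsm1, which replaces LSm8 in the cytoplasmic ring that starts mRNA decay, was at 178 and 168 TPM. Lsm10, a part of the U7 snRNP that trims histone mRNAs, was at 129 and 106 TPM, while its partner Lsm11 was at 0.522 and 1.34 TPM on 32 and 29 reads. The RNA granule gene Lsm14a was at 38.4 and 35.2 TPM, and its paralog Lsm14b, known for its role in oocytes, at 4.91 and 3.52 TPM. On the log2(TPM + 1) scale Lsm14b was below Lsm14a by a difference of -2.87 ± 0.19 (SD, n = 2). Lsm12 was at 14.7 and 15.8 TPM.

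The levels of several ring genes cannot be read apart from those of their processed pseudogenes, intronless copies made from a spliced mRNA and inserted elsewhere in the genome. Lsm7 lies on chromosome 10 (80852821 to 80855209, minus strand, GRCm38 with GENCODE M21). Its copy Gm10146 (chromosome 10, 78393320 to 78393628, plus strand) is 309 bases long and matched the first 309 of 312 coding bases of Lsm7 with 0 differences. The first 120 bases are shown because they stand for both loci, with the start codon in capitals.
Lsm7 and Gm10146: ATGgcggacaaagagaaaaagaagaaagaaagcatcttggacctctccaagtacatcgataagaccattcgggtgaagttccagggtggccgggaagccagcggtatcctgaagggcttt

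A cDNA read that lies wholly within the 309 bases carries nothing that tells its origin. Gm10146 was listed at 4682 and 5235 TPM, 1.82-fold and 1.81-fold the level of Lsm7. In reads the order was the other way round, with 39138 and 15472 reads for Lsm7 and 13754 and 5408 for Gm10146, since the exons of Lsm7 sum to 1601 bases. With the 468 bases of its principal transcript Gm10146 stood at 0.532 and 0.529 of Lsm7. How reads with several positions were treated is not given in the sources used here.

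The same held in part for 3 Sm genes. Snrpg (chromosome 6, 86371304 to 86379328) and its copy Gm8186 (chromosome 17, 26098991 to 26099221, minus strand) shared all 231 coding bases. Their common first 120 bases are shown, with the start codon in capitals.
Snrpg and Gm8186: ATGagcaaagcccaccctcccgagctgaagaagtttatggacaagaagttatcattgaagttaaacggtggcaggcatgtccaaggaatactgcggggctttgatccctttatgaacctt

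Gm8186 was at 215 and 250 TPM, 0.347 and 0.367 of the level of Snrpg. In contrast, the copies of Snrpe and Snrpf carried a few bases of their own. Snrpe (chromosome 1, 133603871 to 133610291) and the member Snrpert (chromosome 2, 131322088 to 131322366, minus strand) differed at 3 of 279 coding bases. Snrpert was at 501 and 462 TPM. Its 1328 and 431 reads were 7.08% and 6.83% of the reads of Snrpe. Snrpf (chromosome 10, 93583029 to 93589706) and Gm13092 (chromosome 4, 150315177 to 150315436, minus strand) differed at 4 of 260 aligned bases, all within coding bases 2 to 121, where capitals mark the bases that differ.
Snrpf: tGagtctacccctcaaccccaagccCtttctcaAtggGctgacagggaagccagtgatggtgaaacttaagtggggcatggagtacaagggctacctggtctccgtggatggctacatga
Gm13092: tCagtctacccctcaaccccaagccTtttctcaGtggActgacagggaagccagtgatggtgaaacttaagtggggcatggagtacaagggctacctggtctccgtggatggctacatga

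Gm13092 was at 254 ± 1.85 TPM (SD, n = 2), 0.397 and 0.419 of the level of Snrpf. A read that covers such a base can be placed, whereas one between them cannot. Snrpf also shares 65.9% of its exonic bases with Ccdc38 and 19.5% with 4933408J17Rik on the opposite strand, which were at 121 and 114 TPM and at 114 and 115 TPM (use of strand in counting: not given in the sources used here).

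**Figure D3:**
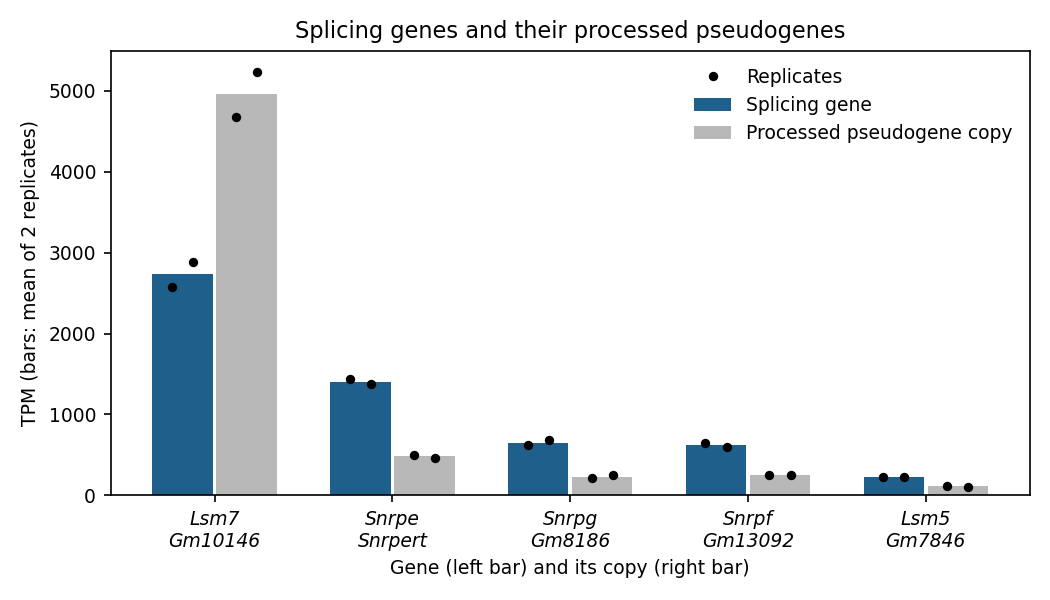
Levels of 5 splicing genes (blue bars) and of the processed pseudogene copy of each (grey bars), with TPM on a linear y axis from 0. Bars are means of both replicates and points are the replicates. On the deposited values, which use all exons, the copy exceeds the gene only for Lsm7. On these values the copies of Snrpe, Snrpg, Snrpf and Lsm5 stand at 0.336 to 0.512 of the gene in each replicate. With the length of the principal transcript the copy of Lsm7 falls to 0.532 and 0.529 of the gene. On that length the copies stand at 0.128 and 0.123 for Snrpe, 0.233 and 0.247 for Snrpg, 0.320 and 0.286 for Lsm5 and, unchanged, 0.397 and 0.419 for Snrpf.

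Shared sequence was common among the members. Of 94 protein-coding members, 22 had at least 10% of their 50-base windows in another locus, compared with 9.9% of all protein-coding genes. For 17 of the 22 the highest such locus in the table was a processed pseudogene. The copy reached at least 30% of the level of the member for 5 of them (Lsm5, Lsm7, Snrpe, Snrpf and Snrpg) and stayed under 20% for the other 12. With the length of the principal transcript for the members, 3 copies reached 30% (those of Lsm5, Lsm7 and Snrpf), 13 stayed under 20%, and Snrpert stood at 0.128 and 0.123 of Snrpe. Hnrnpa1 shared 46.4% of its windows, but its highest copy, Gm10052, was at only 30.4 and 20.6 TPM. U2af1 shared 59.4%, and its copy Gm10232 (chromosome 17) differed at 2 of 720 coding bases and was at 6.72 and 5.40 TPM. Hnrnpa3 shared 90.5% of its windows with 45 other loci, and Gm6793, 1 of them, was at 19.6 and 22.4 TPM.

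Proteins particular to U1, the snRNP that first marks the 5′ splice site, were mostly low. The 3 core proteins were Snrnp70 at 3.78 and 3.34 TPM, Snrpa, the U1-A protein, at 12.1 and 12.2 TPM and Snrpc, the U1-C protein, at 3.16 and 3.70 TPM. Snrpa and Snrpc shared 25.9% and 26.7% of their windows with other loci. With the length of the principal transcript Snrpc was at 16.2 ± 1.80 TPM and Snrnp70 at 11.1 ± 1.01 TPM (SD, n = 2). Against this, Prpf39, a U1-associated protein, was at 302 and 306 TPM, 79.9-fold and 91.6-fold above Snrnp70. With the length of the principal transcript the gap was 53.5-fold and 61.4-fold. Prpf39 shares 5.01% of its exonic bases with Fkbp3 on the opposite strand, which was at 934 and 967 TPM. Prpf40b, another U1-associated factor, was at 1.59 TPM in replicate 1 and 0.664 TPM in replicate 2, on 75 and 11 reads.

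U2 proteins were spread over the whole range of levels, and all 11 kept the same order in both replicates. Snrpa1, which binds U2 RNA as the A′ protein together with the B″ protein, was at 438 and 445 TPM, 8.26-fold and 11.6-fold above its partner Snrpb2 (B″), at 53.0 and 38.5 TPM. This gap was 15.2-fold and 21.2-fold with the length of the principal transcript. Snrpa1 shares 4.67% of its exonic bases with Gm45213 on the same strand, which was at 1417 and 1426 TPM. Sf3b6, the small subunit that lies at the branch adenosine, was at 225 and 224 TPM. The large scaffold Sf3b1 was at 55.7 and 53.6 TPM, close to Sf3b2 at 60.5 and 61.6 TPM and Sf3b5 at 56.4 and 58.2 TPM. Sf3b3 was lower at 10.5 ± 0.754 TPM (SD, n = 2), and Sf3b4 was at 1.99 and 1.38 TPM on 41 and 10 reads. Sf3b4 shared 49.3% of its windows with another locus, and the part of this in its low level was not tested. Within the 3-subunit SF3A complex the levels differed most: Sf3a3 was at 61.1 and 74.8 TPM, Sf3a1 at 12.2 and 14.8 TPM and Sf3a2 at 0.515 and 0 TPM. Sf3a2 was the lowest of all members, with 13 reads in replicate 1 and 0 in replicate 2, where a count of 0 allows up to 0.338 TPM. Its principal transcript also had the highest GC content of the protein-coding members, 62.2%.

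Around the branch site and the 3′ splice site, Sf1, which binds the branch site first, was at 10.7 and 8.62 TPM. U2af2, the large U2AF subunit that reads the polypyrimidine tract, was at 7.52 and 6.40 TPM, whereas the small subunit U2af1, which reads the AG, was at 53.9 and 48.8 TPM. U2af2 shared 29.0% of its windows with other loci and U2af1 59.4%. U2af1l4, a paralog of the small subunit, was at 67.3 and 64.5 TPM, but 65.6% of its exonic bases also belong to the overlapping gene Gm49396 on the same strand. On the log2(TPM + 1) scale U2af1 was below U2af1l4 by a difference of -0.35 ± 0.06 (SD, n = 2), and with the length of the principal transcript in place of all exons this turned to 0.05.

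Of the tri-snRNP genes, Snrnp27 was far above the others at 462 and 485 TPM. The remaining 10 were at 50.2 TPM or less in each replicate. Snrnp40, a U5 protein, was at 50.2 and 44.1 TPM and Prpf38a, needed for activation, at 40.4 and 44.0 TPM. The core of the machine was lower: the helicase Snrnp200, which unwinds U4 from U6, was at 17.7 and 16.9 TPM, and Prpf8, the scaffold of the catalytic centre, at 7.05 and 5.41 TPM. Prpf6, the bridge between U5 and U4/U6, was at 18.6 and 21.2 TPM, and Prpf31, known from retinitis pigmentosa, at 15.6 and 14.3 TPM. The U4/U6 proteins Prpf4 and Prpf3 were at 9.02 and 5.59 TPM and at 6.58 and 5.71 TPM. Prpf38b was at 19.6 ± 0.539 TPM and the kinase Prpf4b at 14.2 ± 2.53 TPM (SD, n = 2). For the later steps, Prpf18 was at 5.94 and 5.52 TPM and the ubiquitin ligase Prpf19 at 1.60 and 2.47 TPM.

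The minor spliceosome, which removes a rare class of introns, was represented by 3 genes of very different level. Snrnp25 was at 479 and 428 TPM, Snrnp48 at 16.7 and 12.8 TPM and Snrnp35 at 2.19 and 2.44 TPM. Snrnp25 therefore exceeded Snrnp35 219-fold and 175-fold, although all 3 are proteins of the same U11/U12 particle. With the length of the principal transcript Snrnp48 was at 59.5 ± 11.5 TPM (SD, n = 2).

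SR proteins were dominated by 3 genes. Srsf7 was at 685 and 610 TPM, Srsf3 at 260 and 244 TPM and Srsf2 at 236 and 216 TPM. Together these held 72.7% and 71.8% of the TPM of the 11 Srsf genes. A middle group followed, with Srsf6 at 102 and 91.9 TPM, Srsf10 at 89.0 and 83.3 TPM, Srsf1 at 82.6 and 87.3 TPM, Srsf11 at 68.3 and 66.4 TPM and Srsf9 at 53.9 and 55.7 TPM. Srsf10 and Srsf1 changed places between replicates, but with the length of the principal transcript Srsf10 stood above Srsf1, at 114 ± 5.60 against 64.4 ± 2.32 TPM (SD, n = 2). Srsf5 was at 30.5 and 28.3 TPM. The lowest were Srsf4 at 9.48 and 4.28 TPM and Srsf12 at 6.28 and 1.90 TPM, and these also varied most between the libraries. Srsf4 shares 43.0% of its exonic bases with Gm12992 on the opposite strand, which was at 5.77 and 2.60 TPM. Srsf2 shares 15.6% with Mettl23 on the opposite strand, which was at 217 and 202 TPM.

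**Figure D4:**
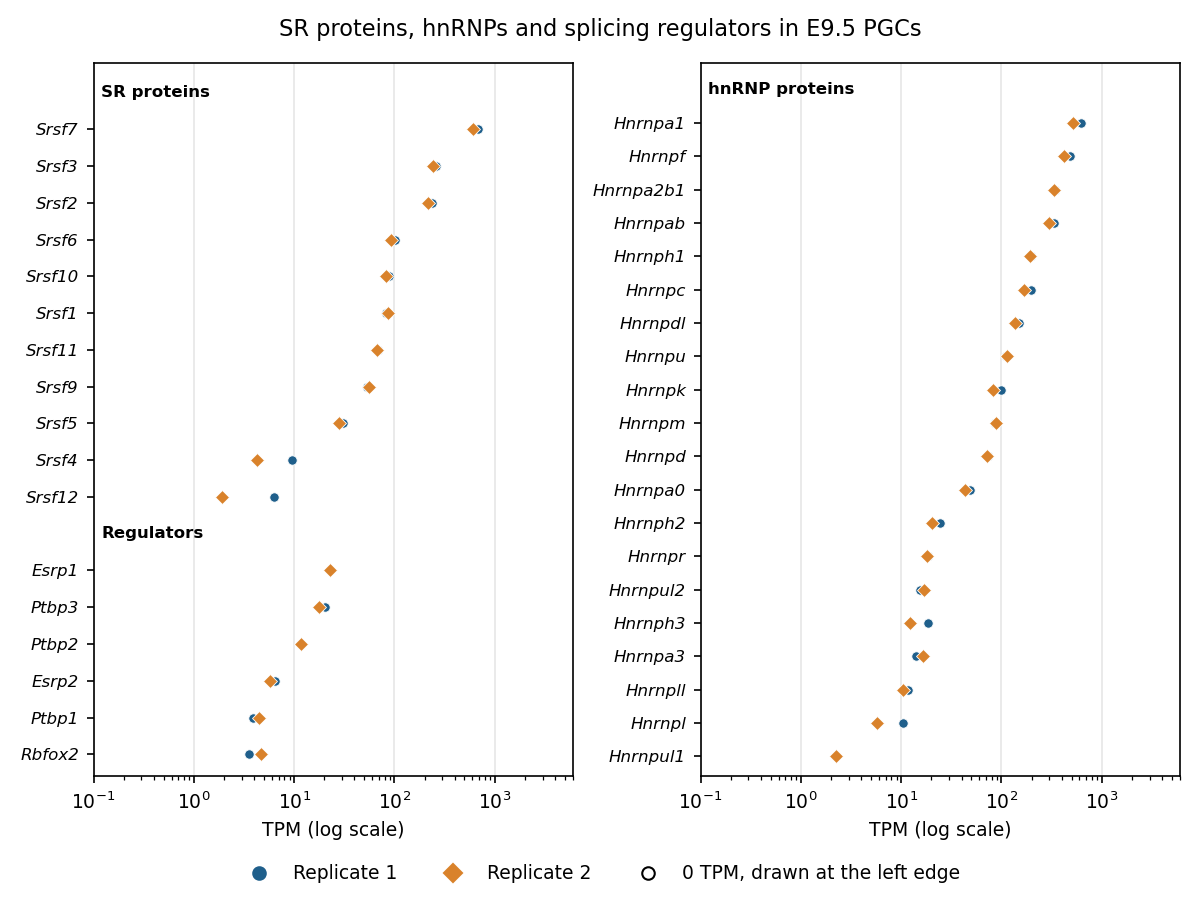
SR proteins, splicing regulators and hnRNP proteins, with TPM on a logarithmic x axis and 1 row per gene, ordered by mean level. Circles are replicate 1 and diamonds replicate 2. Srsf7 and Hnrnpa1 lead their families above 500 TPM on the deposited values (with the length of the principal transcript Hnrnpa2b1 leads the hnRNPs), the regulators lie at 22.6 TPM or less, and Srsf4 and Srsf12 show the widest gaps between replicates.

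The hnRNP family was abundant as a whole, with a median of 6.33 and 6.28 on the log2(TPM + 1) scale and 8 of 20 genes at 100 TPM or more. Hnrnpa1, an inhibitor of exon inclusion and a shuttling mRNA carrier, was highest at 626 and 518 TPM. Hnrnpf, which binds G-rich elements, was at 487 and 420 TPM. Hnrnpa2b1 followed at 341 and 334 TPM, Hnrnpab at 336 and 301 TPM, Hnrnph1 at 198 and 191 TPM and Hnrnpc, which binds uridine tracts, at 195 and 169 TPM. With the length of the principal transcript Hnrnpa2b1 was first, at 951 ± 17.6 TPM against 669 ± 90.9 TPM for Hnrnpa1 (SD, n = 2). The 4 genes Hnrnpa1, Hnrnpf, Hnrnpa2b1 and Hnrnpab held 62.5% and 61.2% of the TPM of the family on the deposited values. Hnrnpab shares 29.1% of its exonic bases with Phykpl on the opposite strand, which was at 85.9 and 75.8 TPM. At the low end were Hnrnpul1 at 2.25 and 2.25 TPM, Hnrnpl, which binds CA repeats, at 10.4 and 5.78 TPM, Hnrnpll at 11.7 and 10.3 TPM, Hnrnpa3 at 14.0 and 16.5 TPM, Hnrnph3 at 18.6 and 12.2 TPM and Hnrnpul2 at 15.5 and 16.9 TPM. The other 8 lay between 18.3 and 149 TPM in each replicate, among them Hnrnph2, the single X-linked member, at 24.3 and 20.5 TPM.

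Regulators of cell type-specific splicing were detected at low to moderate levels. Esrp1, the epithelial splicing regulator, was at 22.6 and 22.6 TPM, 3.49-fold and 3.90-fold above its paralog Esrp2 at 6.14 ± 0.50 TPM (SD, n = 2). In the same libraries the 7 epithelial markers with a value had a median of 8.05 and 5.99 TPM. They ran from Epcam at 160 and 138 TPM down to Grhl2 at 0.586 and 1.01 TPM, and their part in the Esrp1 level was not tested. Among the polypyrimidine tract binding proteins the order was the same in both replicates. Ptbp3, best known from blood cells, was at 20.2 and 17.6 TPM, Ptbp2, the neural paralog, at 11.7 and 11.8 TPM and Ptbp1, the widely expressed one, at 3.86 and 4.42 TPM. Ptbp1 shares 20.7% of its exonic bases with other genes. Among them is Gm17134 on the opposite strand, with 9.22% of these bases and a level of 33.2 and 44.5 TPM. On the log2(TPM + 1) scale Ptbp1 was below Ptbp2 by a difference of -1.31 ± 0.10 and below Ptbp3 by one of -1.95 ± 0.24 (SD, n = 2); with the length of the principal transcript the first was -2.12. Rbfox2 was at 3.52 and 4.67 TPM, while Rbfox1 and Rbfox3 had no value in the expression table.

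Further splicing and RNA-binding genes, outside the name pattern, were described from lists by function. Among proteins that join late, 15 of 15 were detected, with Bcas2 at 746 and 738 TPM and Bud31 at 467 and 469 TPM as the highest and Cdc40 at 8.38 and 9.16 TPM and Aqr at 2.77 and 2.13 TPM as the lowest. Of the helicases, 10 of 11 with a value were detected; Ddx5 was at 304 and 282 TPM and Ddx39b at 78.3 and 71.8 TPM, whereas Dhx38 was at 2.50 and 3.19 TPM and Ddx23, the tri-snRNP helicase, at 0.304 and 0.384 TPM. All 19 other snRNP genes in the table were detected, from Txnl4a, a small U5 protein, at 633 and 629 TPM and Phf5a, a small SF3B subunit, at 181 and 181 TPM down to Txnl4b at 2.78 and 3.48 TPM and Zrsr1 at 1.99 and 2.20 TPM. All 12 snRNP assembly genes were detected, with Gemin6 at 158 and 115 TPM and Clns1a at 91.3 and 88.8 TPM as the highest, Gemin5 at 4.72 and 3.84 TPM and Gemin8 at 3.72 and 2.77 TPM as the lowest, and Smn1, the centre of the assembly complex, at 7.14 and 5.08 TPM.

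The list for the exon junction complex, which marks spliced mRNAs, also held mRNA decay factors, the Upf genes and Smg1. Of its 10 genes, 10 were detected. The highest were Magoh at 861 and 893 TPM and Rbm8a at 603 and 600 TPM. The lowest were the decay factors Smg1 at 3.93 and 3.16 TPM and Upf1 at 1.64 and 1.42 TPM. Of the SR-like proteins and kinases in the table, 14 of 14 were detected. Tra2b was at 122 and 123 TPM and Son at 95.8 and 106 TPM, while the SR kinases were lower, with Srpk1 at 8.36 and 8.15 TPM, Srpk2 at 3.44 and 3.27 TPM, Clk1 at 38.2 and 31.3 TPM, Clk4 at 17.2 and 16.5 TPM, Clk2 at 3.14 and 2.60 TPM and Clk3 at 1.90 and 1.24 TPM. Of 17 hnRNP-like genes 16 were detected, from Sfpq at 145 and 153 TPM and Pcbp1 at 93.4 and 102 TPM to Raly at 2.43 and 1.64 TPM and Pcbp3 at 0.395 and 0.816 TPM. The other tissue regulators were the lowest group: 12 of 21 in the table were detected. Celf1 (17.8 and 16.9 TPM) and Elavl1 (16.2 and 17.7 TPM), both widely expressed, and Elavl2 (10.6 and 9.54 TPM) exceeded Mbnl1 (0.618 and 0.431 TPM), Mbnl2 (0.895 and 0.324 TPM), Mbnl3 (1.05 and 0 TPM), Celf2 (0.455 and 0.254 TPM) and the neural gene Elavl4 (0.820 and 1.33 TPM). The highest of the group were Tial1 at 30.3 and 26.1 TPM and Rbm10 at 19.7 and 18.0 TPM, and Rbm20, known from heart muscle, was at 0.0620 and 0.441 TPM.

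Across members the level went with the length and base composition of the transcript. Spearman's rho of the mean level with the length of the principal transcript was -0.40 over 94 protein-coding members, and -0.21 over 12679 protein-coding genes. Over the 9554 protein-coding genes at a mean of 1 TPM or more it was -0.31. With GC content rho was -0.37 over the members, -0.22 over protein-coding genes and -0.16 over those at a mean of 1 TPM or more. The 14 members with transcripts under 1000 bases had a median of 312 and 296 TPM, the 42 members from 1000 to under 3000 bases one of 51.6 and 44.0 TPM, and the 38 members of 3000 bases or more one of 18.6 and 17.9 TPM. Of the 22 members under 10 TPM, 18 had a GC content of at least 50%, as had 6 of the 30 protein-coding members at 100 TPM or more. Such a GC content was held by 37 of the 94 protein-coding members and by 6340 of the 12679 protein-coding genes. Over all protein-coding genes the median was likewise lower at this GC content, at 2.51 and 2.49 TPM against 6.04 and 5.52 TPM for the rest. All points share the same libraries and the length also enters TPM, and the part of length or GC in any single level was not tested.

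Both libraries gave closely similar values for the members. The median absolute difference was 0.14 on the log2(TPM + 1) scale, compared with 0.27 over 12896 genes at a mean of 1 TPM or more. Across the members Pearson's r was 0.995 and Spearman's rho 0.995, as a description across genes. More than 2-fold apart on this scale was 1 of 95 members, against 10.2% of all genes. That member, Srsf12, which encodes an SR-related protein, fell by 1.33 on the log2 scale from 188 reads to 20, and Srsf4 came next with a difference of -0.99 on 321 and 51 reads. With a pseudocount of 0.1 the count was 5, with Srsf12, Srsf4, Lsm11, Prpf40b and Sf3a2. The share of all genes at that pseudocount was not computed. Members were higher in level than most genes, and none of these comparisons was matched for level, so they show nothing particular to splicing genes.

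Counting error alone did not cover all differences between the replicates. Exact 95% Poisson intervals did not overlap for 35 of 95 members, against 24.7% of 18748 genes, and such intervals are narrow for genes with many reads. Of these, 28 were higher in replicate 1 and 7 in replicate 2. All 8 such hnRNP genes, all 6 SR genes and all 4 tri-snRNP genes were higher in replicate 1. In the Sm ring 2 genes (Snrpe and Snrpb) were higher in replicate 1 and 2 (Snrpd2 and Snrpg) in replicate 2. At a mean of 10 TPM or more the largest differences reported, as log2(TPM + 1) of replicate 2 minus replicate 1, were -0.57 for Hnrnph3, -0.45 for Snrpb2, -0.37 for Snrnp48, -0.34 for Prpf4b and 0.29 for Sf3a3. Over all members 62 were higher in replicate 1 and 33 in replicate 2, with a median difference of -0.08, compared with -0.04 over genes at a mean of 1 TPM or more. These values describe the libraries, which differ in depth, and no condition. The split by direction was not computed over all genes. Neither the 28 and 7 nor the 62 and 33 can therefore be called particular to splicing genes or to a family among them.

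**Figure D5:**
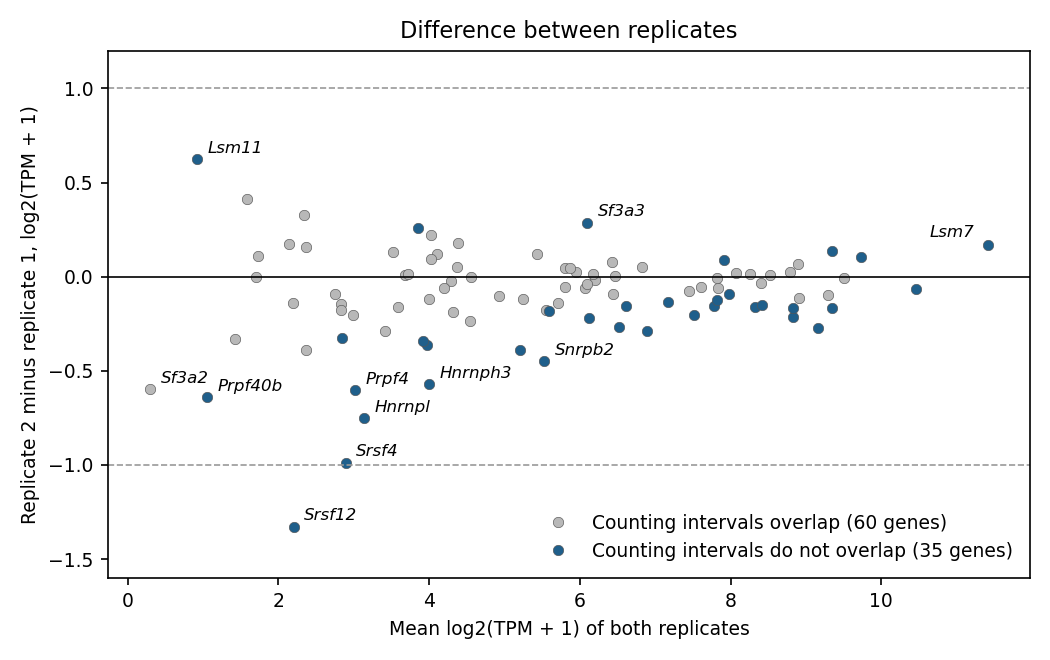
Difference between the replicates for the 95 splicing genes, with the mean log2(TPM + 1) on the x axis and replicate 2 minus replicate 1 on the y axis; dashed lines mark 2-fold. Blue points are the 35 genes whose 95% counting intervals do not overlap. Srsf12 alone lies beyond 2-fold, and most genes with a mean above 6 lie within 0.3 of 0.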

How the data were processed

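RNA-seq was analysed for 2 replicates of E9.5 PGCs. Per the study's methods, the authors mapped clean reads to mm10 with Hisat2 and counted them with featureCounts; the submitters' processing notes list Bowtie2, HISAT2, RSEM, DESeq2 and R 3.4.2 without roles, so the quantifier is uncertain. The authors deposited TPM per gene symbol. Versions, annotation, strand and multi-mapping settings are not given in the sources used here. Columns of other samples in the table numbered 0.

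Here, symbols were matched to GENCODE M21 (18748 of 18877). TPM multiplied by summed exon length gave whole multiples of 1 amount per library for 96.7% and 95.8% of values under 50 reads (tolerance 0.02); that amount was taken as 1 read. Exact 95% Poisson intervals and the limit of 3 reads for a 0 cover counting error only. Levels were summarised as TPM or log2(TPM + 1), a scale that understates differences of low genes. Principal transcripts gave length, GC and coding sequence, and 50-base windows were searched in all other GENCODE transcripts. Read recovery and the window search were tested on simulated data. No p-value was computed, since 1 group allows no comparison of conditions.

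The members, role lists, companion lists and markers were chosen with earlier results of these data known. Named were every member of role lists of up to 11 genes, the 6 highest and 6 lowest of longer lists, members under 1 TPM, the 6 largest differences between replicates at 10 TPM or more, and of each companion list the 2 highest and 2 lowest with the SR kinases and the Mbnl, Celf and Elavl genes; the copies, Smn1 and the markers were added for the results they touch. Values of some single genes and sequences under this rule are not reported here. Alternatives were another pseudocount, filters on low values, other detection limits and scalings, and each replicate alone. Python 3.11.15, numpy 2.4.6, pandas 2.3.3, scipy 1.17.1 and matplotlib 3.10.9 were used.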

Additional observations from a re-analysis of the deposited data

Results flagged for a closer look

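Snrnp25 lies on chromosome 11 at 67.4 kb from the embryonic alpha-globin gene Hba-x, and Mpg and Nprl3, among the genes between them, were outside the comparisons above. Their signal was above the limit that a count of 0 allows: Mpg had a mean of 4.20 TPM (2.66 and 5.74 TPM) and Nprl3 one of 2.13 TPM (1.57 and 2.69 TPM), whereas Snrnp25 was at 479 and 428 TPM and Hba-x at 2331 and 2065 TPM.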

How the results depend on the processing

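Leaving out a replicate cannot move a mean of 2 beyond their SD and so was no check. Of the 89 other recomputed values, 43 stayed within the spread between replicates or, for counts, within 1.5 times, 45 moved further and 1 reversed. The count of detected members was 94 at 0.5 TPM and 81 at 5 TPM, and 93 in each replicate alone. The shares of all genes under these settings were not computed. Rescaling to nuclear genes of at least 200 exonic bases raised the median of the members from 5.62 to 5.95 and their share of TPM from 1.66% to 2.09%. The next 3 alternatives were chosen after seeing the data. With the length of the principal transcript the median was 5.83 and the share 2.62%, the difference of U2af1 and U2af1l4 turned from -0.35 to 0.0457, and 32 of 95 members stood over 1.5-fold higher, up to 4.72-fold for Snrpc. Without the members that share at least 10% of their windows the median was 5.31 and the share 0.710%; without Lsm7 the share was 1.39%. A pseudocount of 0.1 moved the count of members over 2-fold apart from 1 to 5. No paired analysis was possible because there is only 1 group. Depth limits the lowest members: in replicate 2, Sf3a2 had 0 reads, Sf3b4 had 10 and Prpf40b had 11.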
